A study of Mus musculus with 28 samples.

Results

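The chemokines that draw T cells and natural killer (NK) cells into tissue, and the receptors that read them, were followed across tumors and cultured cells of the mouse Lewis lung carcinoma line 3LL. The genes were taken by name: Cxcl9, Cxcl10, Cxcl11, Cxcl16, Ccl5, Ccl22 and Ccl17 as ligands, and Cxcr3 and Ccr4 as receptors. Of these 9 genes, 6 were found by symbol among the 18463 named genes of the deposited table (Cxcl9, Cxcl10, Cxcl16, Ccl5, Ccl22 and Cxcr3). Cxcl11, Ccl17 and Ccr4 were not analysed here.

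The table covers 28 RNA-seq libraries in 7 groups of 4. Experiment A holds WT 3LL tumors and KEAP1-KO tumors, from cells with both copies of Keap1 disrupted by CRISPR, and Experiment B holds KEAP1-KO tumors and DKO tumors, which lack KEAP1 and NRF2. By the study's account the KEAP1-KO cells were cloned from a single colony, and so was the DKO line made from them. Clone and edit therefore cannot be told apart. KEAP1 is the protein that marks the transcription factor NRF2 (gene Nfe2l2) for degradation, and only the cancer cells carried these edits, so the host mice kept both genes and an intact immune system. The tumors grew for 10 days under the skin of male albino C57BL/6 mice that were 6 weeks old at injection, with the genotypes of an experiment on opposite flanks of the same mice. Flank and genotype therefore cannot be told apart. The other 3 groups are WT, KEAP1-KO and DKO cells in culture. The extraction protocol in the labels names liver, whereas the titles and the study's methods name tumors and cells, which is the reading used here. The labels do not say which tumors came from the same mouse or whether the cell libraries are separate cultures, so p-values measure only the spread between these libraries.

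Values are given as normalized counts (reads scaled to a common library size) or on the deposited scale, log2(normalized count + 4), on which 0 reads give 2. Reads recovered from these values came to between 4222386 and 7524302 per library, with a median of 5619794, and 1 read was worth 0.809 to 1.16 normalized counts. Differences near the floor of 2 are understated on this scale. The Keap1 row separated the edited lines from WT, at 9.45 ± 0.09 (SD, n = 4) on the log2 scale in WT cells against 7.59 ± 0.07 in KEAP1-KO and 7.35 ± 0.08 in DKO cells. Nqo1, the classical NRF2 target, was 12.41 ± 0.11 and 12.23 ± 0.22 in the KEAP1-KO tumors of Experiments A and B, against 6.85 ± 0.19 in WT and 5.93 ± 0.46 in DKO tumors. The only Nfe2l2 row is a processed transcript that did not set the DKO libraries apart, and it checks no label.

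CXCL9, CXCL10 and CXCL11 are made in response to interferon gamma and all bind CXCR3, a receptor of activated T cells and NK cells. CXCL16 is held at the cell surface, is shed by ADAM10, and binds CXCR6. CCL5 binds receptors that include CCR1 and CCR3 and is itself made by activated T and NK cells as well as by other cells. CCL17 and CCL22 bind CCR4 on helper and regulatory T cells and come mainly from dendritic cells and macrophages. The row of a gene in this table is either a gene total or 1 transcript, described here by GENCODE vM21. Ccl5 (ENSMUSG00000035042, chromosome 11), Ccl22 (ENSMUSG00000031779, chromosome 8) and Cxcr3 (ENSMUSG00000050232, chromosome X) have gene rows. The Cxcl9 row (ENSMUST00000202404, chromosome 5) is a retained intron transcript of 370 bases, of which 65.7% lie in coding-transcript exons. That of Cxcl10 (ENSMUST00000201176, chromosome 5) is a retained intron transcript of 2230 bases with 67.2% in such exons. That of Cxcl16 (ENSMUST00000126391, chromosome 11) is a transcript of 1267 bases annotated for nonsense-mediated decay, all of it within such exons. For these 3 chemokines the values are therefore not the gene's total.

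Promoter windows of 250 bases before the start were available for 6 of the 9 genes in RefSeq (GRCm38.p6). Those of Cxcl9, Cxcl10 and Ccl22 are shown because their levels moved together in Experiment A and parted in Experiment B, as described further on. Capitals mark matches to 4 motifs searched on both strands: the interferon-stimulated response element (ISRE, GAAANNGAAA), the gamma-activated sequence (GAS, TTCNNNGAA), the NRF2-binding antioxidant response element (ARE, TGACNNNGC) and the NF-kB motif. The genome build of the deposited table is not given in the sources used here, and these coordinates are those of the RefSeq table.
Cxcl9 promoter, chr5:92328080-92328329, minus strand: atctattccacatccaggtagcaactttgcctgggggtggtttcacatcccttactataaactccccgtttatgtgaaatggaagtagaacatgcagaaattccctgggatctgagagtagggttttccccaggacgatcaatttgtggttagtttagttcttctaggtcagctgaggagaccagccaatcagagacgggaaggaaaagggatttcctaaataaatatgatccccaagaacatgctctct
Cxcl10 promoter, chr5:92348890-92349139, minus strand: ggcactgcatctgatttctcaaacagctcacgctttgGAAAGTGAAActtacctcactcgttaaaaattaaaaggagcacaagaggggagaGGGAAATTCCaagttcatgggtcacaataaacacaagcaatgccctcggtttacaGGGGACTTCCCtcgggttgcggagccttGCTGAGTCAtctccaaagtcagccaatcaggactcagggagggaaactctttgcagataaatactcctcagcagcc
Ccl22 promoter, chr8:94745434-94745683, plus strand: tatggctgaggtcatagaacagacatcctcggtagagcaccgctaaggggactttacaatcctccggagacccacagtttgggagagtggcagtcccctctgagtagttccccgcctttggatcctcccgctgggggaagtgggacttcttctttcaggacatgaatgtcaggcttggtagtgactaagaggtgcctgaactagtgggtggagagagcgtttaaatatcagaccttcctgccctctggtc

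The Cxcl10 window held an ISRE match at -213 to -204 from the start and NF-kB matches at -159 to -150 and at -104 to -95, the latter overlapping another at -103 to -94. It also held an ARE match on the opposite strand at -76 to -68, whose bases include TGAGTCA, the letters of an AP-1 site. Among 32851 windows of this length, 2.98% held the ISRE letters, 7.25% the NF-kB motif, 10.2% the ARE letters and 7.02% the GAS letters. None of these letters occur in the Cxcl9 and Ccl22 windows. A match is a description of these bases and not a binding site.

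In Experiment A the 5 ligands fell with KEAP1 loss, where 7.49% of all rows tested were called lower. In Experiment B Cxcl9, Cxcl10, Cxcl16 and Ccl5 were higher in DKO than in KEAP1-KO tumors. Cxcl16 was higher in the KEAP1-KO group of Experiment B than in that of Experiment A, and the Ccl22 values of the former overlapped with WT. In the cultured cells Cxcl10 had more than 3 reads per group in every genotype, while the others were at or close to 0. Bulk tumor RNA holds cancer cells and host cells together, and fewer cells of a type and less RNA per cell cannot be told apart. The plot of the deposited values by library shows the whole pattern.

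**Figure D1:**
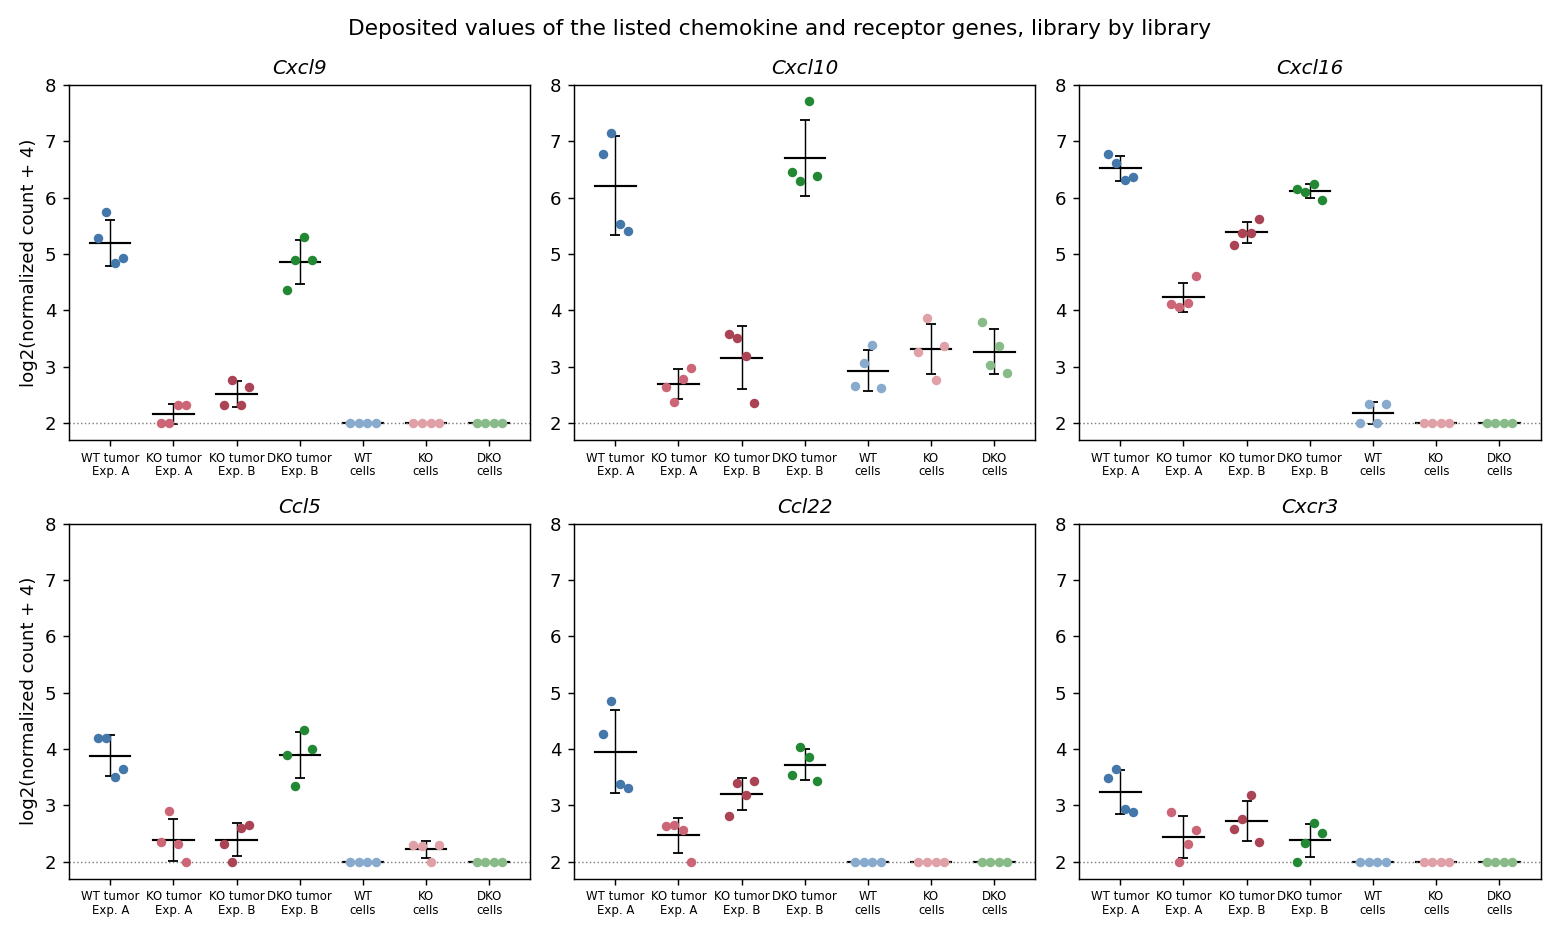
Deposited values, log2(normalized count + 4), of 6 genes in 28 libraries by group (Exp., Experiment; KO, KEAP1-KO). Points are libraries, horizontal bars are group means, error bars are the SD (n = 4) and the dotted line is 0 reads. WT and DKO tumors lie above both KEAP1-KO groups for Cxcl9 (means 5.20 and 4.86 against 2.16 and 2.51), and Cxcl16 rises in a stepwise order from KEAP1-KO of Experiment A to WT.

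Cxcl9 was 35.03, 49.5, 24.7 and 26.3 normalized counts in the 4 WT tumors. It was 0, 0, 0.966 and 0.973 in KEAP1-KO tumors of the same experiment, 0.997, 2.79, 1.01 and 2.26 in those of Experiment B, and 16.4, 25.8, 35.6 and 25.6 in the DKO tumors. WT and DKO tumors overlapped, and neither overlapped with a KEAP1-KO tumor. In Experiment A the log2 difference was -3.04 ± 0.25 (SE, adjusted p = 6.5e-07, limma with Benjamini-Hochberg adjustment over all rows tested, as throughout). In reads, 149 in WT against 2 in KEAP1-KO tumors gave a level 64.3-fold higher in WT, with a 95% counting interval of 17.5 to 535.7. These intervals are exact and cover counting error only. In Experiment B the DKO tumors were higher by 2.35 ± 0.25 (adjusted p = 1.7e-05), or 15.0-fold (7.04 to 38.1) from 114 against 7 reads. All 12 libraries of cultured cells had 0 Cxcl9 reads.

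Cxcl10 had the greatest log2 difference of the 5 ligands in Experiment B. In Experiment A it did so on the deposited scale, whereas with a pseudocount of 1 Cxcl9 had the greater one (-4.58 against -4.38), as it did in reads. It was 106, 138, 42.0 and 38.2 normalized counts in WT tumors and 2.22, 1.16, 2.90 and 3.89 in the KEAP1-KO tumors beside them. In Experiment B it was 7.98, 7.45, 5.07 and 1.13 in KEAP1-KO tumors and 83.3, 74.2, 206.4 and 79.3 in DKO tumors. No WT or DKO tumor came near a KEAP1-KO tumor, and DKO replicate 3 stood well above the other DKO tumors. The difference was -3.52 ± 0.41 in Experiment A (adjusted p = 2.3e-05), which in reads is a 30.54-fold higher level in WT (16.4 to 64.2). In Experiment B it was 3.55 ± 0.41 (adjusted p = 3.8e-05), a 20.7-fold higher level in DKO tumors (13.5 to 33.4).

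Cxcl16 varied little between tumors of a group (SD 0.12 to 0.26 on the log2 scale). Its normalized counts were 106, 94.3, 75.9 and 78.1 in WT and 13.3, 12.7, 13.5 and 20.4 in KEAP1-KO tumors (Experiment A). They were 31.9, 37.2, 37.5 and 45.2 in KEAP1-KO and 66.8, 64.9, 72.0 and 58.0 in DKO tumors of Experiment B. The 4 groups did not overlap with each other. The fall in Experiment A was -2.29 ± 0.16 (adjusted p = 1.0e-07), with a level 5.83-fold higher in WT (4.42 to 7.82). The rise in Experiment B was smaller, 0.73 ± 0.16 (adjusted p = 0.0065), or 1.73-fold (1.42 to 2.13).

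Ccl5 was 14.4, 14.3, 7.31 and 8.49 normalized counts in WT tumors, against 1.11, 3.47, 0.966 and 0 in the KEAP1-KO tumors beside them. In Experiment B it was 0.997, 0, 2.03 and 2.26 in KEAP1-KO tumors and 10.96, 6.18, 16.2 and 11.9 in DKO tumors. Every WT and DKO tumor was above every KEAP1-KO tumor. The differences were -1.49 ± 0.28 (adjusted p = 0.0019) and 1.51 ± 0.28 (adjusted p = 0.0027). The counts are small: 49 reads over the WT tumors against 5, an 8.46-fold higher level in WT (3.39 to 27.2), and 50 over the DKO tumors against 5, 9.20-fold (3.69 to 29.6).

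Ccl22, the CCR4 ligand, fell in Experiment A but did not pass the test in Experiment B. Its normalized counts were 15.3, 24.8, 6.40 and 5.94 in WT tumors and 2.22, 2.31, 1.93 and 0 in KEAP1-KO tumors, a difference of -1.49 ± 0.33 (adjusted p = 0.0055). In reads the level was 8.20-fold higher in WT (3.54 to 23.3). In Experiment B it was 2.99, 6.52, 5.07 and 6.78 in KEAP1-KO and 7.67, 12.4, 10.5 and 6.82 in DKO tumors. These last groups did not overlap but came close, and the difference of 0.52 ± 0.33 had an adjusted p of 0.42. The ratio of 40 to 21 reads was 1.75 (1.01 to 3.13).

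Cxcr3, the receptor of CXCL9 and CXCL10, was too low for the filter (5 or more normalized counts in 4 or more libraries of a fit) and was tested alone by two-sided exact permutation, whose smallest p with 4 against 4 is 0.0286. Its normalized counts were 7.19, 8.57, 3.66 and 3.40 in WT tumors and 3.33, 0, 0.966 and 1.95 in the KEAP1-KO tumors beside them. They were 1.995, 2.79, 5.07 and 1.13 in KEAP1-KO and 0, 1.03, 2.43 and 1.71 in DKO tumors of Experiment B. In Experiment A WT tumors were above KEAP1-KO tumors by 0.80 on the log2 scale. Across the experiments the WT tumors were above the DKO tumors by 0.86. Each difference had the smallest exact permutation p, 0.0286, or 0.0571 after adjustment over the 8 comparisons made for this gene. The WT level in reads was 3.595-fold (1.44 to 10.7) that of the KEAP1-KO tumors and 4.03-fold (1.61 to 12.02) that of the DKO tumors. In Experiment B the DKO tumors were not higher than the KEAP1-KO tumors (-0.34, exact permutation p = 0.2). Cxcl9 and Cxcl10 thus had a high level in DKO tumors where their receptor had 6 reads in all, against 25 in WT tumors. From 6 against 11 reads the ratio of DKO to KEAP1-KO tumors was 0.502 (0.152 to 1.48).

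Counted over the members tested, 5 of 5 ligands fell on KEAP1 loss in Experiment A, with a median difference of -2.29, while 7.49% of all rows tested were called lower and the median over all rows was -0.03. In Experiment B 4 of 5 were higher in DKO than in KEAP1-KO tumors, with a median of 1.51, against 4.22% of all rows called higher and a median of 0. The members were chosen with results of these same tumors known, and all but Cxcl16 passed the filter only through the WT and DKO tumors, so these counts are a description and no independent evidence of a direction. DKO tumors were also set against WT tumors, across the experiments. None of the 5 ligands passed limma's test, where 10.6% of all rows did in either direction. Cxcl16 alone (1 of 5) had an unadjusted p under 0.05, with a difference of -0.41 ± 0.16 and an adjusted p of 0.121, and its DKO tumors all lay below the WT tumors. Cxcl10 differed by 0.49 ± 0.41, Cxcl9 by -0.34 ± 0.25, Ccl22 by -0.23 ± 0.33 and Ccl5 by 0.01 ± 0.28.

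**Figure D2:**
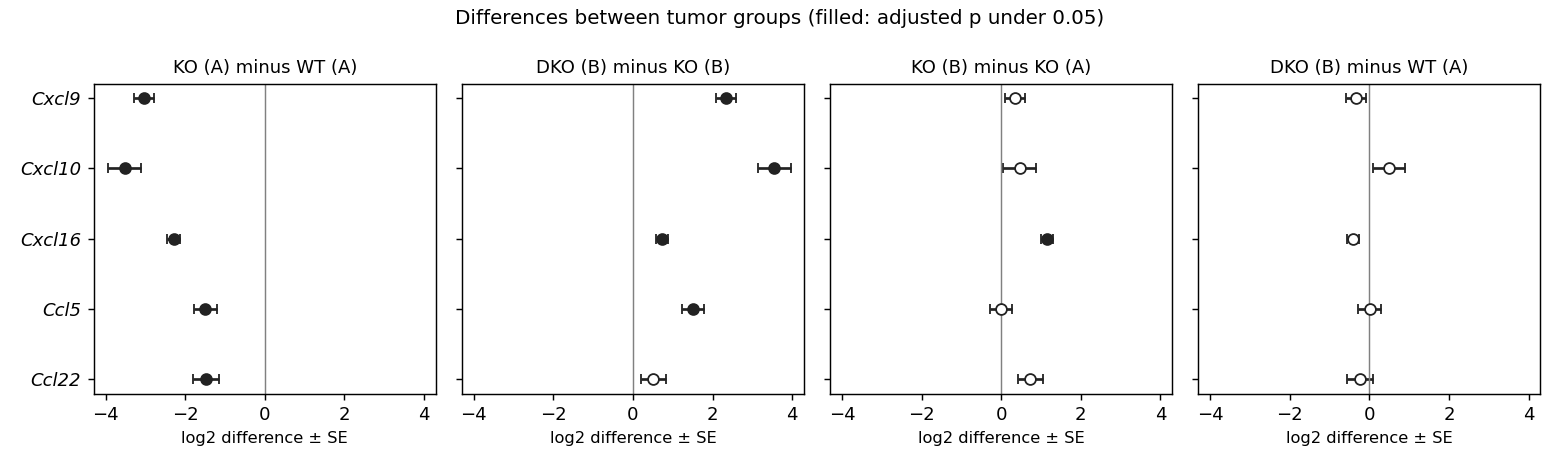
Log2 differences between tumor groups with their SE from the fit of 16 tumors, for the 5 ligands tested. A and B are the experiments and KO is KEAP1-KO. Filled points passed the test at an adjusted p under 0.05: all 5 in KEAP1-KO against WT, all but Ccl22 in DKO against KEAP1-KO, Cxcl16 (1.15) alone between the KEAP1-KO groups and none between DKO and WT.

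The KEAP1-KO tumors of the 2 experiments have the same genotype and differ in experiment, mice, flank and the tumor on the other side, which cannot be told apart. These comparisons share the KEAP1-KO tumors with those above. Cxcl16 was 1.15 ± 0.16 higher in Experiment B (adjusted p = 0.0141), or 2.49-fold (1.83 to 3.43), the only ligand called, where 0.152% of all rows were called higher. Without KEAP1-KO replicate 1 of Experiment A its adjusted p was 0.0639, and without KEAP1-KO replicate 4 of Experiment B it was 0.0624. With only these 8 tumors in the fit it was 0.113. Ccl22 was higher by 0.74 ± 0.33 (unadjusted p = 0.0382) and did not pass the test after adjustment. Cxcl9 (0.36 ± 0.25), Cxcl10 (0.47 ± 0.41) and Ccl5 (-0.0019 ± 0.28) did not pass the test either. Macrophage markers moved with Cxcl16 here: 5 of 12 rows (Itgam, Csf1r, C1qa, C1qb and Mrc1) were higher in Experiment B, and their summed level was 3040 to 3667 normalized counts in Experiment A and 4658 to 5346 in Experiment B. None of these markers was at 0. Their part in the result was not tested.

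The ligands moved with leukocyte markers. All 10 leukocyte marker rows fell in Experiment A (median -1.90), and 9 of 10 were higher in DKO than in KEAP1-KO tumors (median 0.99). The exception was Arhgdib, which fell by 0.47 and whose row was at 7.39 in cultured WT cells on the log2 scale. Ptprc, which encodes CD45, was 8.96 in WT, 6.64 and 7.44 in the KEAP1-KO groups and 8.46 in DKO tumors on the log2 scale. The summed level of the 10 rows was 3761 to 4693 normalized counts in WT, 1200 to 1306 and 1663 to 2084 in KEAP1-KO and 2679 to 4119 in DKO tumors, against 33.5 to 249 in the cultured cells. Of the macrophage and monocyte markers, 11 of 12 fell in Experiment A and 8 of 12 rose in Experiment B. Their sums were 6942 to 9159 in WT and 6522 to 8458 in DKO tumors, and none of the 12 was at 0 in a tumor group.

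NK cells and T cells, which these ligands attract, were followed through their own markers. Of 4 NK cell markers tested, 4 fell in Experiment A: Gzmb (-2.78), Prf1 (-2.06), Gzma (-1.83) and Klrk1 (-1.74). In Experiment B 3 of the 4 rose, Gzmb (1.74), Klrk1 (1.68) and Prf1 (1.46), the first and last of which also serve cytotoxic T cells. The summed NK list of 6 listed genes was 71.9 to 114.3 in WT, 0 to 12.6 and 2.99 to 14.0 in KEAP1-KO and 37.5 to 84.2 in DKO tumors. Ncr1 and Klrb1c, defining NK genes, were at 0 in every KEAP1-KO tumor of Experiment A, and Gzma in every one of Experiment B. Of 7 T cell markers tested, 4 fell in Experiment A (among them Cd4, -1.65; Cd6, -1.16; Cd2, -1.04). In Experiment B their adjusted p lay between 0.123 and 0.929, with differences from -0.09 to 0.83. The summed T cell list was 58.6 to 155.4 in WT, 30.2 to 38.2 and 21.4 to 44.1 in KEAP1-KO and 39.2 to 80.9 in DKO tumors, with Cd6 at 0 in every KEAP1-KO tumor of Experiment A. Cd3e had 24 reads over the WT tumors, 1 in each KEAP1-KO group and 10 over the DKO tumors. Regulatory T cells, which carry the CCL22 receptor, were followed by 5 markers, of which 4 were tested and 3 fell in Experiment A: Foxp3 (-1.65, adjusted p = 0.00467), Il2ra (-1.52, 0.00138) and Ctla4 (-1.44, 0.0273). In Experiment B the 4 had differences from -0.07 to 0.93 with adjusted p between 0.13 and 0.954. Their summed level was 42.04 to 82.6 normalized counts in WT, 8.89 to 19.7 and 16.96 to 28.4 in KEAP1-KO and 20.5 to 51.5 in DKO tumors, and none of the 5 was at 0 in a whole tumor group. The Cd8a row was present in cultured cancer cells as well, with group means of 3.87 to 3.93 there and 4.01 to 4.56 in tumors. Low rows of the T cell lists, such as Cd2, passed the filter in the same way, so their counts are also a description. The part of NK and T cells in the ligand levels was not tested.

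Markers of other host tissue were looked at in the same way. The 6 endothelial markers had adjusted p from 0.335 to 0.944 in Experiment A and from 0.0595 to 0.782 in Experiment B. Fibroblast markers fell for 1 of 6 rows in Experiment A (Dcn, -1.78) and rose for 3 of 6 in Experiment B (Dcn, Lum and Col3a1). Of 3 skeletal muscle rows tested, Acta1 (2.96) and Myh1 (2.70) rose in DKO tumors. Of 8 dendritic cell markers, Ccr7 and Itgax fell in Experiment A, and in Experiment B Ccr7 rose and Flt3 fell. The part of these tissues in the ligand levels was not tested.

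To set the ligands against the leukocyte content, each level was divided by the summed leukocyte rows of the same tumor, a measure chosen after the data were seen. The sum includes Arhgdib, whose row was also present in cultured WT cells and did not follow the other leukocyte rows in Experiment B. Per 1000 leukocyte marker counts, Cxcl10 was 18.04 ± 9.70 (SD, n = 4) in WT, 2.01 ± 0.85 in KEAP1-KO of Experiment A, 2.89 ± 1.65 in KEAP1-KO of Experiment B and 30.8 ± 13.4 in DKO tumors. The KEAP1-KO tumors were 8.997-fold below WT and 10.7-fold below DKO tumors, without overlap. Cxcl9 was 7.71 ± 2.04 in WT, 0.374 ± 0.431 and 0.899 ± 0.392 in the KEAP1-KO groups and 7.48 ± 2.22 in DKO tumors, again without overlap. Its KEAP1-KO level was 20.6-fold below WT in Experiment A and 8.32-fold below DKO in Experiment B. These folds are smaller than those of the undivided levels, 30.54 and 20.7 for Cxcl10 and 64.3 and 15.0 for Cxcl9. Both comparisons of both genes had the smallest exact permutation p, 0.0286, which is 0.0857 after adjustment over the 24 ratios tested and so passes no correction. No smaller p can arise with 4 against 4, so the adjusted value cannot decide whether these ratios differ.

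The other members were divided in the same way. Cxcl16 was 20.3 ± 2.1 per 1000 in WT, 11.9 ± 2.5 in KEAP1-KO of Experiment A, 19.9 ± 2.6 in KEAP1-KO of Experiment B and 18.9 ± 1.9 in DKO tumors. By this reference only the KEAP1-KO tumors of Experiment A stood apart, 1.71-fold below WT (exact permutation p = 0.0286, adjusted 0.0857). In Experiment B the ratio of DKO to KEAP1-KO was 0.948 (exact permutation p = 0.629). Per 1000 macrophage marker counts, the Cxcl16 level in KEAP1-KO tumors of Experiment B (6.85 to 8.52) also lay below WT (8.63 to 11.57). Ccl22 was 2.91 ± 1.78, 1.31 ± 0.89, 2.78 ± 0.78 and 2.67 ± 0.59 in the same order of groups, and its groups overlapped in both experiments (exact permutation p = 0.257 and 0.8286). Ccl5 overlapped in Experiment A (2.52 ± 0.67 against 1.13 ± 1.202, exact permutation p = 0.0857) and not in Experiment B, where DKO tumors were 4.61-fold higher (3.28 ± 1.19 against 0.711 ± 0.558, exact permutation p = 0.0286). Cxcr3 per 1000 was 1.28 ± 0.48 in WT and 0.379 ± 0.296 in DKO tumors, with 1.25 ± 1.18 and 1.51 ± 1.08 in the KEAP1-KO groups.

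**Figure D3:**
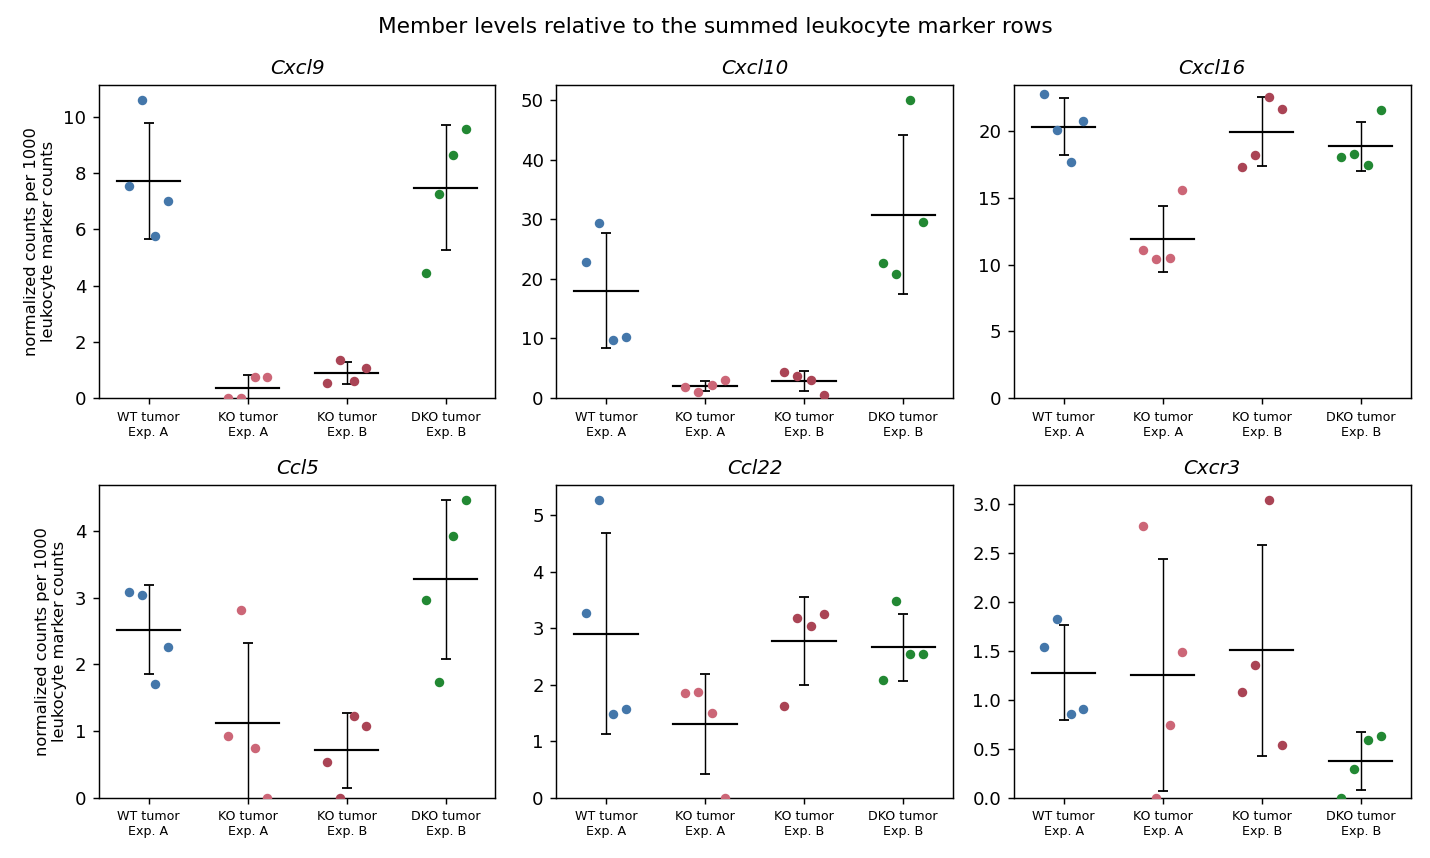
Normalized counts of each gene per 1000 summed counts of 10 leukocyte marker rows, by tumor. Points are tumors, bars are means and error bars the SD (n = 4), cut at 0, and each panel has its own scale. Cxcl10 (means 18.04, 2.01, 2.89 and 30.8) and Cxcl9 do not overlap between KEAP1-KO and the other tumors, while Cxcl16 and Ccl22 overlap between the 2 groups of Experiment B.

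In the cultured cells Cxcl10 was the only member above the filter. Its normalized counts were 2.28, 4.32, 6.501 and 2.15 in WT, 5.57, 10.5, 2.83 and 6.27 in KEAP1-KO and 9.77, 4.20, 6.29 and 3.42 in DKO cells. The genotypes overlapped. KEAP1-KO against WT gave 0.38 ± 0.31 (adjusted p = 0.485), DKO against KEAP1-KO -0.04 ± 0.31 (0.967) and DKO against WT 0.34 ± 0.31 (0.526). No member was therefore called by limma among the 1 tested, and none had an unadjusted p under 0.05, where 15.5%, 8.83% and 17.7% of all rows were called. Ccl5 had 3 reads in KEAP1-KO and 0 in WT and DKO cells, Cxcl16 had 2 reads in WT cells and 0 in the others, and Ccl22 and Cxcr3 had 0 in all 12 libraries. Over a group of 4 libraries a count of 0 allows up to 3 reads.

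Tumors were compared with cells of the same genotype in 1 fit of all 28 libraries, in which the median over all rows was 0.16 to 0.23 higher in tumors. Cxcl10, the ligand that also passed the filter in cells, was higher by 3.28 ± 0.38 in WT tumors (24.7% of all rows called higher) and by 3.44 ± 0.38 in DKO tumors (27.6%). The other 4 ligands had 0 to 3 reads in a cell group and passed the filter only through the tumors, so their direction between WT or DKO tumors and cells was fixed by it and their values are a description. Against a group at 0 reads, taken as 3, Cxcl9 was 41.0-fold higher in WT and 36.3-fold higher in DKO tumors. Ccl22 was 15.7-fold and 12.7-fold higher, respectively. Such folds leave out the counting error of the tumor reads and are no lower bounds. KEAP1-KO cells had 0 reads of Cxcl16, Ccl22 and Cxcl9, so that no KEAP1-KO tumor group could be lower. Against the same 3 reads, Cxcl16 was 22.2-fold higher in the KEAP1-KO group of Experiment A and 55.4-fold higher in that of Experiment B. In Experiment B Ccl22 was 7.80-fold and Cxcl9 2.60-fold higher, the latter from only 7 tumor reads. As a description, limma called Cxcl16 alone of the 5 in Experiment A and these 3 in Experiment B (Cxcl9 with an adjusted p of 0.0475), where 23.9% of all rows were called higher in each. The Cxcl9 call did not hold without KEAP1-KO tumor replicate 2 or 4, or without any 1 of the KEAP1-KO cell libraries (adjusted p 0.0766 to 0.133), nor with quantile normalization (0.184) or median centring (0.385). Cxcl10 had 10 reads in the KEAP1-KO tumors of Experiment A against 28 in KEAP1-KO cells, a ratio of 0.411 (0.178 to 0.871), although its log2 difference of -0.62 ± 0.38 did not pass the test (adjusted p = 0.207). In Experiment B the ratio was 0.876 (0.477 to 1.59) and the difference -0.15 ± 0.38 (adjusted p = 0.789).

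The effect of the edits in tumors was also tested against that in cells. For Cxcl10 the KEAP1 effect was more negative in tumors (-3.90 ± 0.53, adjusted p = 2.0e-05), where 3.88% of all rows were called lower, and the NRF2 effect was more positive (3.59 ± 0.53, adjusted p = 1.3e-04), where 2.12% were called higher. Cxcl9, Cxcl16, Ccl5 and Ccl22 could not be compared in this way. They had 0 to 3 reads in a cell group and entered the fit through the tumors, so that the same term restates their differences between tumors.

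Of 12 receptors and processing factors of these chemokines, 7 were tested, among which 3 fell and 1 rose in Experiment A. Ccr1, a receptor of CCL5, fell from 7.75 in WT to 5.61 in KEAP1-KO tumors on the log2 scale (-2.14, adjusted p = 7.5e-08). Pf4, a CXCR3 ligand of platelets, fell by 1.41 on a retained intron row. Ackr3, a scavenger of chemokines, rose by 0.90 (adjusted p = 0.00975). In Experiment B Ccr1 rose by 1.21, and between the KEAP1-KO groups it was higher in Experiment B by 0.90. Ccr1 is also expressed by macrophages, whose markers moved with it as given above. The row of Adam10, the sheddase of CXCL16, is a transcript annotated for nonsense-mediated decay and not the gene's total. It was at the floor of 2 in WT tumors and had differences of 3.27 (adjusted p = 0.138) and -1.04 (0.747). It ranged from 0 to 124.6 normalized counts within KEAP1-KO tumors of Experiment A and from 0 to 158.6 within DKO tumors. Ccr3, a further CCL5 receptor, had differences of -0.48 (0.384) and -0.07 (0.941). The Adam17 row, also a decay transcript, had -0.32 and 0.47 (0.42 and 0.248).

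Of 25 inducers of these genes, 21 were tested and 8 fell in Experiment A, with a median of -0.74 over the list. Irf7, an amplifier of interferon responses, changed by -2.998 (adjusted p = 8.2e-06) and Irf9, part of the factor that binds ISRE sites, by -1.52. Stat2, its partner, changed by -1.58, Irf8 by -1.18, Irf4 by -1.15 and Socs1, the feedback inhibitor of STAT signaling, by -0.74. Tnf, which acts through NF-kB, fell by 1.82 (adjusted p = 6.7e-05). Irf1 fell by 1.91 (adjusted p = 0.0321), on a transcript row that was at the floor of 2 in DKO tumors as well. Rela, an NF-kB subunit, had the second lowest value, -2.22, which did not pass (adjusted p = 0.0807). In Experiment B 5 of 21 rose: Irf7 (2.29), Irf9 (1.22), Tnf (0.98), Irf8 (0.66) and Socs1 (0.60), with a median of 0.55. The highest value in Experiment A was that of Ifngr2 (0.35, adjusted p = 0.808), followed by Ifnar1 (0.19, 0.922), both subunits of interferon receptors. Of the interferon regulatory and STAT rows named here, those of Irf7, Irf8, Irf9 and Stat2 are retained introns and not gene totals. The Rela, Ifngr2 and Ifnar1 rows are transcripts annotated for nonsense-mediated decay and are not gene totals either. Although the KEAP1-KO groups share a genotype, the mean of the Rela row was 2 for Experiment A and 4.60 for Experiment B (log2 scale, adjusted p = 0.352).

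Of 22 other lymphocyte chemokines and receptors, 11 were tested and 4 fell in Experiment A. These were Ccl3 (-1.73) and Ccl4 (-1.10), inflammatory chemokines of the CC family, Cx3cr1 (-1.69) and Ccr7 (-1.64), the receptor that guides cells to lymph nodes. In Experiment B Ccl4 (1.04) and Ccr7 (1.03) rose. The highest value of the list in Experiment A was that of Ccl28 (0.12, adjusted p = 0.846), followed by Ccl25 (-0.10, 0.97).

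Within the WT and DKO groups the members often ranked the tumors alike. WT replicates 1 and 2 were the 2 highest WT tumors for all 6 members, and DKO replicate 3 was the highest DKO tumor for 5 of 6, the exception being Ccl22. In each KEAP1-KO group no tumor was the highest for more than 3 of 6. Over the 16 tumors the Pearson correlation of Cxcl9 with Cxcl10 was 0.96, and 0.66 after the group means were subtracted. That was the highest within-group value of the 10 pairs of ligands, and Ccl5 with Cxcl16 gave the lowest, 0.15 (0.80 over all tumors). These values are descriptions over tumors that share genotype and normalization.

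The rows most like each ligand over the 16 tumors were ranked by Pearson correlation, with no test. Cxcl10 was most like Oas3 (0.985, and 0.962 with group means subtracted), Gbp3 (0.979) and Isg15 (0.975), all interferon-stimulated genes. Cxcl9 was most like Selplg (0.978), Tep1 (0.976) and the interferon-induced Gbp2 (0.974). Cxcl16 was most like Msr1 (0.984), a macrophage scavenger receptor, Ctsc (0.982) and Cd93 (0.982). Ccl5 was most like Gm36933 (0.968), Apol9b (0.955) and Apol9a (0.954). Ccl22 was most like Plcb1 (0.921), Anxa6 (0.917) and Kcnk6 (0.915), the weakest values of the 5. The group means alone make such values high, as those after subtraction show, from 0.51 for Cxcl9 with Gbp2 to 0.96 for Cxcl10 with Oas3.

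**Figure D4:**
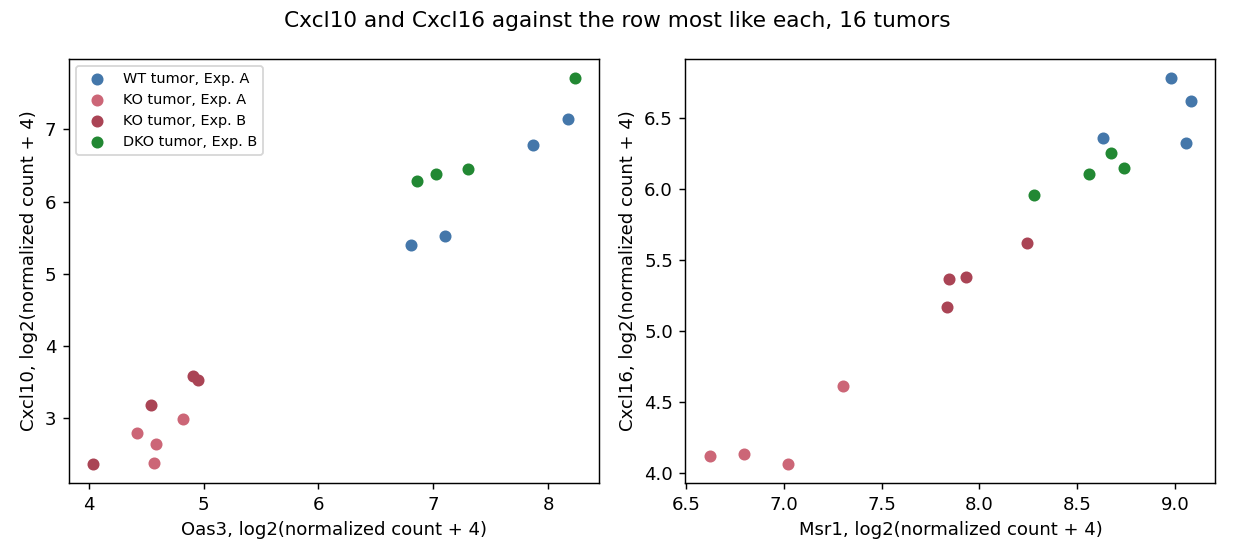
Cxcl10 against Oas3 and Cxcl16 against Msr1 over the 16 tumors, both axes in log2(normalized count + 4), colored by group (KO, KEAP1-KO; Exp., Experiment). Cxcl10 and Oas3 fall into a low set of KEAP1-KO tumors and a high set of WT and DKO tumors (Pearson r = 0.985), whereas Cxcl16 and Msr1 form a continuous series (0.984) in which the KEAP1-KO tumors of Experiment B lie between those of Experiment A and the rest.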

How the data were processed

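Total RNA of 16 tumors and 12 cultured cell libraries was sequenced after ribosomal RNA depletion. Per the study's methods and the labels, the authors quantified strand-specific paired reads with Salmon against GENCODE mouse transcripts (version 35) and analysed them with iDEP. Per the values themselves, the authors deposited log2(normalized count + 4): the lowest is exactly 2, and 100% of values of up to 30 reads are whole reads within 0.05 when undone. The methods speak of TPM. The table has 43143 rows, 34021 of transcripts and 9122 of genes, named here with another release, GENCODE vM21 (GRCm38), from which transcript types and lengths come, so that some members are represented by 1 transcript. No count model was run on log values.

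Groups were compared on the deposited values with limma 3.58.1 under R 4.3.3, using lmFit and eBayes with an intensity trend, for rows that reached 5 normalized counts in 4 or more libraries, in fits of 16 tumors, 12 cell libraries or all 28, with Benjamini-Hochberg adjustment over all rows tested and a threshold of 0.05. The script was tested on simulated data. Single values were compared by exact permutation. Named are the members, the 2 lowest and 2 highest rows of each list by difference in Experiment A, further receptors and inducers, markers, and the 3 rows most like each ligand. Members and lists were chosen with earlier results of these data known. Alternatives were a pseudocount of 1, no filter, a mean of at least 25, median centring, quantile normalization, leaving the 20 highest rows out of the scaling (rescaling), no trend, only the compared groups, the replicate number as a block and each library left out. The ratios to marker rows were added after the data were seen. Between 13.9% and 23.5% of rows were at 0 in a library, which limits precision for low genes. Some genes of these lists are counted in them but not reported here by name.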

Additional observations from a re-analysis of the deposited data

Results flagged for a closer look

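In a group of 4 tumors or cell libraries, a library was looked at again when its gap to the nearest other exceeded Dixon's 95% critical share of the group's range. Of 29 combinations of member and group with any spread, 4 met this, where chance flags about 1 in 20. Ccl22 was at the floor of 2 on the log2 scale (0 reads) in KEAP1-KO tumor replicate 4 of Experiment A, while the others had 2 reads each. Ccl5 was at 2 in KEAP1-KO cell replicate 3, against 1 read in the others, a difference of a single read. Cxcl10 reached 7.72 in DKO tumor replicate 3, and Cxcl16 reached 4.61 in KEAP1-KO tumor replicate 4 of Experiment A.

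The effects of KEAP1 and NRF2 loss on Cxcl10 differed between tumors and cultured cells by the test of the difference itself in limma, with tumor minus cell values of -3.90 and 3.59. The same test was passed by Cxcl9 (-3.04 and 2.35), Ccl5 (-1.71 and 1.73), Cxcl16 (-2.12, KEAP1) and Ccl22 (-1.49, KEAP1). These 4 had 0 to 3 reads in a cell group and passed the filter only through the tumors, so their values restate the differences between tumors and show no difference from an effect in cells.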

How the results depend on the processing

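The 5 ligands that fell on KEAP1 loss and the 4 that rose on NRF2 loss in tumors were counted alike under every alternative except a mean of at least 25 normalized counts, which leaves only Cxcl10 and Cxcl16 to test. That filter gave 2 calls in each of these comparisons, 2 for WT and 2 for DKO tumors against cells, 1 for KEAP1-KO tumors of Experiment B against cells, 2 for the KEAP1 effect and 1 for the NRF2 effect between tumors and cells. The single call between the KEAP1-KO groups, Cxcl16, became 0 with only the 2 groups in the fit (adjusted p = 0.113), and between 0 and 1 with each library left out. KEAP1-KO tumors of Experiment A against cells gave 2 calls with a pseudocount of 1, and those of Experiment B gave 1 with only the compared groups. Leaving out each library changed no count for KEAP1-KO against WT or DKO against KEAP1-KO tumors. The NRF2 effect on Cxcl16 passed without the trend (adjusted p = 0.0298) and after rescaling (0.0339), and the KEAP1 effect on Ccl22 did not with only the compared groups (0.0574). The cause of the changes other than the filter's was not tested.

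Same-numbered libraries did not vary together, with correlations of their deviations from -0.032 to 0.033, so the numbers are not taken as pairs. With the replicate number as a block, the call between the KEAP1-KO groups was 0 (adjusted p = 0.17), KEAP1-KO tumors of Experiment B against cells had 2 in place of 3, and no other count changed.

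Values that changed sign were all small. Between the KEAP1-KO groups Ccl5 was 0.022 with a pseudocount of 1, 0.0032 after rescaling and -0.13 to 0.17 with a library left out. For DKO against WT tumors, leaving out a library gave -0.45 to 0.065 for Ccl22 and -0.14 to 0.19 for Ccl5. For DKO against KEAP1-KO cells Cxcl10 was 0.034 with quantile normalization and -0.22 to 0.14 with a library left out. For KEAP1-KO tumors against cells, Ccl5 was -0.061 and Cxcl9 -0.077 in Experiment A with median centring. In Experiment B Ccl5 was -0.055 with quantile normalization and -0.10 with median centring, and Cxcl10 0.047 after rescaling and -0.33 to 0.12 with a library left out. With macrophage in place of leukocyte rows as the reference, the DKO to KEAP1-KO ratio was 1.14 for Cxcl16 and 1.16 for Ccl22, and Ccl22 in KEAP1-KO tumors was 0.332 of WT without overlap (exact permutation p = 0.0286). Depth limits every member but Cxcl16 in KEAP1-KO tumors, where a group held 2 to 22 of their reads in all.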
